A study of Caenorhabditis elegans with 2 samples.

Results

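In Caenorhabditis elegans L3 larvae, 409 reproducible regions of ELT-3 ChIP-seq signal lay just below the cut-off of the irreproducible discovery rate (IDR). They are regions of the authors' pooled list that ranked directly below the IDR peaks, down to rank 3000, chosen by the signal value and by an overlap of at least 1 base with one of the 3000 strongest regions of both replicates. The pooled list holds 30000 regions, of which the first 774 are the deposited IDR peaks. The 409 regions are therefore 18.4% of the 2226 in that range of ranks. The word reproducible names this overlap rule only. Whether the 18.4% differs from what unrelated replicate lists would give was not tested. The remaining 1817 of these ranks served as the comparison, beside the IDR peaks. All animals were of strain OP75, genotype unc-119(ed3) III with the transgene wgIs75, which makes ELT-3 with GFP and FLAG at its C terminus. Whole L3 larvae of unstated age were sonicated, and 2 biological replicates form a single group, so no condition could be compared. The labels list no mutation of the endogenous elt-3 gene beside the transgene, whose driving promoter and clone number they do not give, and ChIP on whole animals gives one value over all tissues.

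The epidermis (hypodermis), where ELT-3 is best known, is the tissue that secretes the collagen cuticle and rebuilds it at every molt. ELT-3 belongs to the GATA factors, zinc finger proteins that bind the sequence WGATAR, in which W stands for A or T and R for A or G. IDR compares the ranks of a site in replicate experiments and keeps sites that rank high in both, so a site with real but weak signal can fall below its cut-off. Such regions were described here by sequence, by position and by the genes whose promoters held one of them and no IDR peak.

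The windows below show the sequence at strong members of the group with and without the motif. They are plus strand sequences of WBcel235 (ce11) reaching 50 bases to either side of the summit, the position of highest signal, for the 6 highest promoter regions with WGATAR inside the printed window and the 2 highest without it within 100 bases of the summit, among regions eligible for printing, clear of annotated UTRs. The kars-1 and lec-2 regions, whose copy lies farther from the summit than the printed window reaches, are therefore not among them. Capitals mark WGATAR or its reverse complement.
ifbp-1, chrV:13373752-13373852: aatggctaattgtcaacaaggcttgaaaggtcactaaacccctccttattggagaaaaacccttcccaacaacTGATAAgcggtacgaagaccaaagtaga
H40L08.9, chrX:15076276-15076376: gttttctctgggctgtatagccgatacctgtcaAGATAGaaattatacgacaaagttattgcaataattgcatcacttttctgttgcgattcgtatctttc
Y53C12B.7, chrII:9752471-9752571: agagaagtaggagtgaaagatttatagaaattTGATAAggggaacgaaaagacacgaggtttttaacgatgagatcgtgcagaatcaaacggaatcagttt
F44A6.5, chrX:10218952-10219052: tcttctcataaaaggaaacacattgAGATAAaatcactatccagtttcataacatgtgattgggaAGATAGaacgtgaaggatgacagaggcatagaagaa
atfs-1, chrV:14193544-14193644: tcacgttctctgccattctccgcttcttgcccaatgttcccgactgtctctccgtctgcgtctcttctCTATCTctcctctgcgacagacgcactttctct
K08B5.1, chrX:16558292-16558392: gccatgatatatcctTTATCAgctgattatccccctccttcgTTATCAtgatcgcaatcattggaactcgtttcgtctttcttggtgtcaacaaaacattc
irld-6, chrV:10757237-10757337: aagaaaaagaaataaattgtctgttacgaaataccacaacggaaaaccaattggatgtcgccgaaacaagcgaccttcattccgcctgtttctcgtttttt
cyp-43A1, chrX:5713592-5713692: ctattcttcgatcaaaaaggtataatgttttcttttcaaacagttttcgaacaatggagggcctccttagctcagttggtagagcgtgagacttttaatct
The sequences spell TGATAA at ifbp-1, Y53C12B.7 and K08B5.1 and AGATAG at H40L08.9, F44A6.5 and atfs-1, on either strand. K08B5.1 shows TGATAA at a pair of positions, and F44A6.5 shows AGATAA besides AGATAG. The last pair, at irld-6 and cyp-43A1, held none within 100 bases of the summit, and the cyp-43A1 region overlaps an annotated tRNA gene.

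By construction the 409 regions sat close to the cut-off. The first region below the cut-off had a pooled signal of 29.47 and the last IDR peak 29.51, while rank 3000 had 19.624 and the next rank 19.619. In replicate 1 the last region used had a signal of 12.7324 and the next one 12.7317, and in replicate 2 they had 9.300 and 9.298. The pooled signal of the reproducible regions ran from 19.7 to 29.5 with a median of 25.6. Their replicate 1 signal ran from 12.7 to 44.4 with a median of 14.9, and their replicate 2 signal from 9.31 to 28.5 with a median of 11.4. Each list has its own scale, which the sources used here do not give, so the values of both replicates show presence in each and not which had more.

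Most of the rank range was reached by one replicate or none. Of the 2226 regions, 1282 (57.6%) overlapped a top 3000 region of replicate 1 and 1008 (45.3%) one of replicate 2. The 1817 other regions divided into 873 with replicate 1 alone, 599 with replicate 2 alone and 345 with neither. Of the 774 IDR peaks, 669 (86.4%) overlapped both, 88 replicate 1 alone and 17 replicate 2 alone. Only 22 of the 409 regions were among the 774 strongest of both replicates, 48 were among those of replicate 1 and 96 among those of replicate 2, these 22 included, and 287 were in neither. The reproducible regions ranked higher in the pooled list than the others, with a median rank of 1198 against 2052, so comparisons of the groups below are also given within 4 bins of rank.

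**Figure D1:**
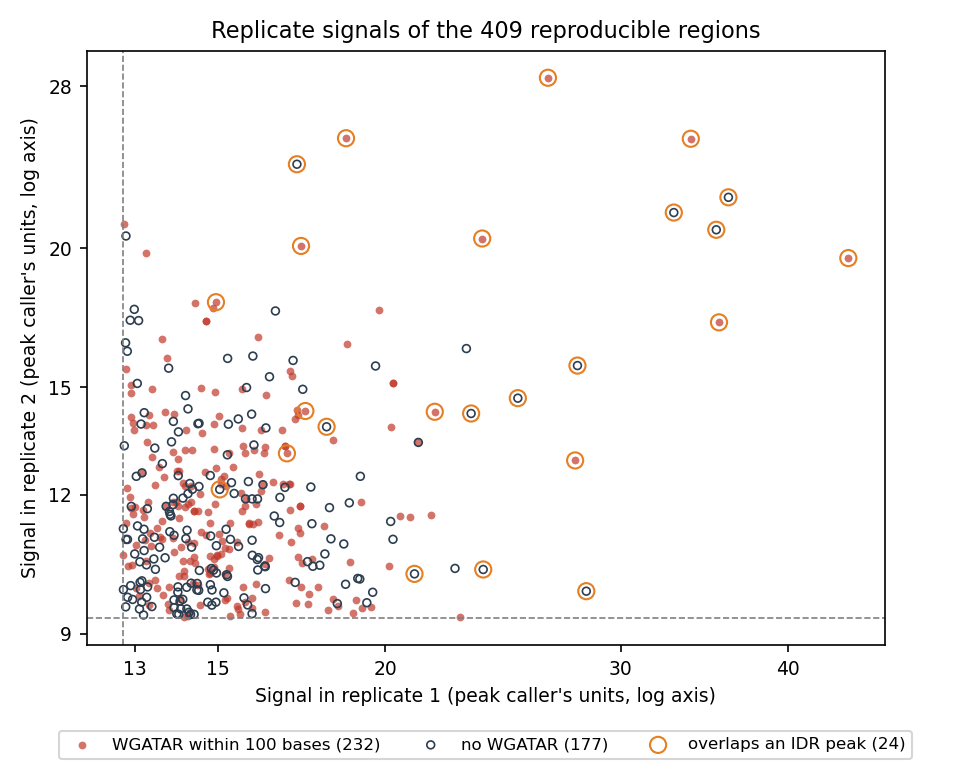
Signal of the 409 reproducible regions in replicate 1 (horizontal, log axis) and replicate 2 (vertical, log axis), in the peak caller's units. Filled points hold WGATAR within 100 bases of the summit, open points do not, large circles mark the 24 regions that overlap an IDR peak, and dashed lines mark the signal of rank 3000 in each replicate; most points lie near the lines, and those farthest to the upper right are circled.

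Some of the 409 regions overlapped stronger ones in the lists, and whether they are separate sites was not tested. For 24 of them the region overlapped an IDR peak, against 1 of the 1817 others, and in all 24 the strongest overlapping region of each replicate overlapped an IDR peak too. Their replicate values are therefore also those of the neighbouring IDR peak. A further overlap joined 9 pairs of reproducible regions, and these 18 regions shared the strongest region of both replicates within each pair. Near the source loci of the transgene, 1 region lay within 20000 bases of elt-3, 513 bases from an IDR summit and with a pooled signal of 27.9, and 0 lay near unc-119. The promoter window of elt-3 itself held 1 IDR peak and 0 reproducible regions, so it is not counted among the newly reached genes.

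The GATA sequence was more frequent at the summits than beside them. Of the 409 regions, 232 held WGATAR no more than 100 bases from the summit (56.7%, exact 95% interval 51.8 to 61.6), against 145 (35.5%, interval 30.8 to 40.3) of their own windows 500 bases upstream in coordinate. In 146 regions it was at the summit alone, against 59 with it in the flank alone (ratio 2.47, two-sided exact McNemar test, p = 1.07e-09). The flank 500 bases downstream held it in 147 regions (35.9%). Over all 30000 pooled regions, the share with WGATAR at the summit was 41.2%. Regions are not replicates, so this p-value describes the list and not variation between animals. Under a rule without replicate 1 the ratio was 1.86, and without replicate 2 it was 2.12.

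The share with WGATAR was highest at the summit and fell off to either side. In windows of 50 bases to either side of a point, 40.6% of the reproducible regions held WGATAR at the summit, and 31.5% and 31.8% did 100 bases to either side. At 200 bases upstream and downstream the shares were 28.6% and 28.4%, at 300 bases 25.9% and 26.4%, and at 500 bases 20.3% and 23.2%. At the summit itself the corresponding shares were 31.7% in the other regions and 56.5% in the IDR peaks. Among the 232 regions with the sequence, the nearest copy lay a median of 27.5 bases from the summit, and it was within 25 bases in 106 and within 50 bases in 172. Single copies occurred in 100 regions, 2 copies in 78, 3 copies in 40 and 4 or more in 14, with at most 6.

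**Figure D2:**
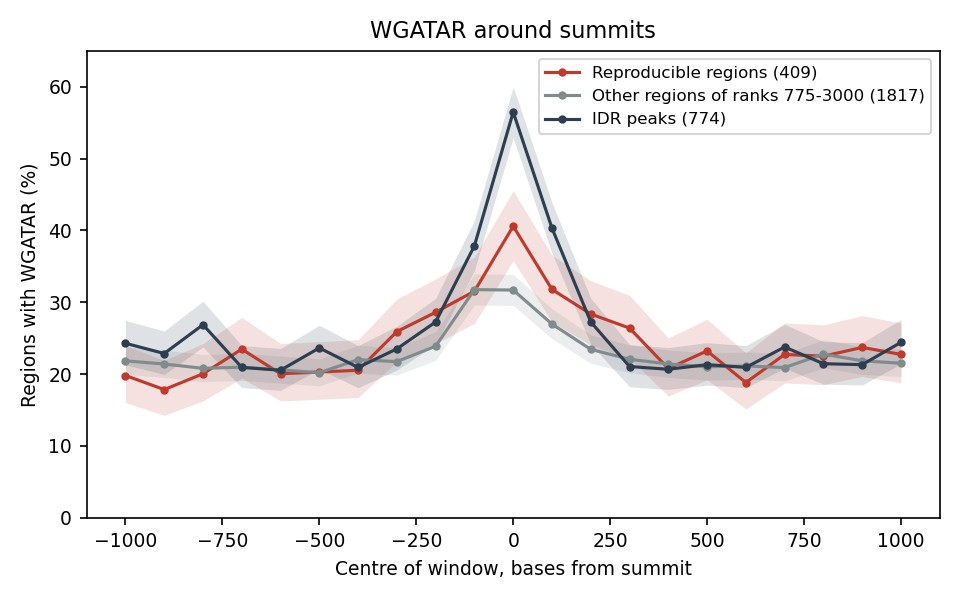
Percentage of regions with WGATAR in windows of 50 bases to either side of a point (vertical) by the distance of the window's centre from the summit in bases (horizontal), for the reproducible regions, the other regions of the same ranks and the IDR peaks. Shaded bands are exact 95% intervals; the reproducible regions peak at 40.6% at the summit, between the others at 31.7% and the IDR peaks at 56.5%.

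All 4 spellings of the motif were found at more summits than flanks. TGATAA was in 150 summit windows against 71 flanks, AGATAA in 80 against 50, TGATAG in 42 against 30 and AGATAG in 63 against 22. A window can hold several spellings. GATAAG, which overlaps WGATAR when preceded by A or T, was at 23.5% of the reproducible summits and at 43.7% of the IDR summits. The other regions of the same ranks had it at 19.3% and all pooled regions at 11.2%. TGATAA was at 36.7% of the reproducible summits, 58.1% of the IDR summits, 29.3% of the other regions' summits and 21.9% of all pooled summits.

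The motif was rarer in the reproducible regions than in IDR peaks, and within bins of rank it was not distinguishable from the other regions. The 232 of 409 reproducible regions with WGATAR compare with 575 of 774 IDR peaks (74.3%, interval 71.1 to 77.3) (Fisher exact test, odds ratio 0.454, p = 8.93e-09 adjusted over 7 comparisons). The higher-ranking of the 409, split at their median rank, a subset added after the data were seen, gave an odds ratio of 0.530 (adjusted Fisher exact p = 0.00121). Against the other regions of the same ranks, of which 916 of 1817 held it (50.4%, interval 48.1 to 52.7), the pooled odds ratio was 1.29 (adjusted Fisher exact p = 0.0301). Within 4 bins of rank the odds ratio was 1.09 (exact conditional test, adjusted p = 0.591), so a difference beyond rank was not detectable. Without replicate 1 the pooled odds ratio was 1.03 (adjusted Fisher exact p = 0.847). In the highest bin, down to rank 1331, the shares were 58.4% of 245 reproducible regions and 58.97% of 312 others. In the third bin, ranks 1888 to 2444, they were 60.5% of 38 and 47.2% of 519, with overlapping intervals. Regions supported by replicate 1 alone held WGATAR in 53.2%, those by replicate 2 alone in 48.7% and those by neither in 46.4%, at median ranks of 1885, 1917 and 2531.

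**Figure D3:**
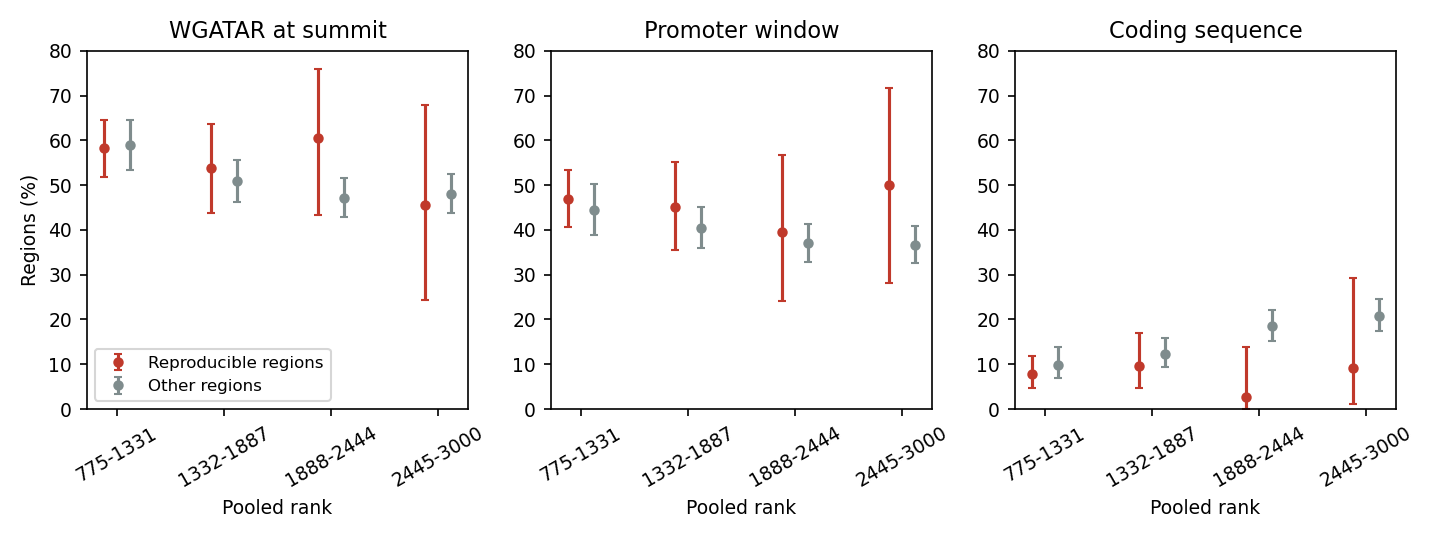
Percentage of regions (vertical) with WGATAR within 100 bases of the summit, with the summit in a promoter window and with the summit in coding sequence, in 4 bins of pooled rank (horizontal), for reproducible regions (left point of each pair) and other regions of the same ranks (right point). Bars are exact 95% intervals. In the highest bin the WGATAR shares are 58.4% and 58.97%, and the coding shares are 7.76% and 9.94%, with overlapping intervals. In ranks 1888 to 2444 the coding shares are 2.63% (1 of 38) and 18.5%.

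Within the 409 regions the motif share is given by rank and by position, with no test between the classes. In 4 groups of nearly equal size by rank, from the highest to the lowest, 59.2%, 61.8%, 51.96% and 53.9% held WGATAR. Intronic summits held it in 69 of 107 (64.5%, interval 54.6 to 73.5), summits outside protein-coding genes in 136 of 234 (58.1%), and coding summits in 10 of 32 (31.2%, interval 16.1 to 50.01). Summits in 5′ UTRs held it in 8 of 17 (47.1%, interval 22.98 to 72.2) and those in 3′ UTRs in 9 of 19 (47.4%, interval 24.4 to 71.1), intervals that overlap the coding one. Summits in promoter windows (59.6%) and elsewhere (54.3%) had overlapping intervals. The 24 regions that overlap an IDR peak held it in 12 cases.

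A search over all sequences of 6 bases, each counted with its reverse complement, found 77 more frequent at the reproducible summits than in the upstream flanks, or 3.7%, and 66 less frequent, or 3.17% (exact McNemar tests, Benjamini-Hochberg adjusted p under 0.05). An unadjusted p under 0.05 was reached by 404. Without replicate 1 the higher ones numbered 203, and without replicate 2 they numbered 282, each over more regions. The GA repeat GAGAGA led the higher ones, at 31.5% of summits against 11.98% of flanks (exact McNemar test, adjusted p = 9.46e-10). GATAAG followed, at 23.5% against 6.36% (adjusted p = 5.91e-09, exact McNemar test), then TGATAA, at 36.7% against 17.4% (adjusted exact p = 1.21e-07). GATAGA was at 16.4% against 4.65% (adjusted exact p = 1.03e-06) and GACGCA at 14.4% against 3.42% (adjusted exact p = 5.19e-06). Of the 48 sequences that contain GATA on either strand, 10 were higher and 0 lower.

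The lower sequences were rich in A and T. AAAATT was at 35.2% of summits against 65.04% of flanks (exact McNemar test, adjusted p = 1.04e-13), the smallest p of all. Among the 36 built from A and T only, 21 were lower and 0 higher. TTTCAG, known as the 3′ splice site consensus of worm introns, was at 15.2% against 32.3% (adjusted exact p = 2.66e-06). G and C made up 39.8% of the summit windows against 35.5% of the flanks, and the part of base composition in these differences was not tested. GAGAGA was at 32.3% of the 232 summits with WGATAR (interval 26.4 to 38.8) and at 30.5% of the 177 without it (interval 23.8 to 37.9). Its share was 31.5% in the reproducible regions and 34.4% in the IDR peaks.

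Most of the regions, like most of all pooled regions, lay outside coding sequence. Of the 409 summits, 234 (57.2%) were outside protein-coding genes, 107 (26.2%) in introns, 17 in 5′ UTRs, 19 in 3′ UTRs and 32 in coding sequence. Outside protein-coding genes lay 48.4% of the other regions of the same ranks and 37.8% of all pooled regions. In introns lay 27.7% of the other regions and 29.3% of all pooled regions, so the intronic share was not higher here. The coding share was 7.82% (interval 5.41 to 10.9), against 16.2% (294 of 1817, interval 14.5 to 17.96) in the other regions of the same ranks (Fisher exact test, odds ratio 0.440, adjusted p = 2.18e-05). It was 26.9% over all pooled regions and 2.58% (20 of 774) in the IDR peaks. In the highest bin, down to rank 1331, the coding share was 7.76% of 245 reproducible regions and 9.94% of 312 others, with overlapping intervals. Within bins of rank the odds ratio was 0.585 (exact conditional test, adjusted p = 0.0269). With replicate 1 alone as the criterion, leaving out replicate 2, it was 0.772 (adjusted Fisher exact p = 0.0787), and over ranks down to 2000 it was 0.684 (adjusted Fisher exact p = 0.207).

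**Figure D4:**
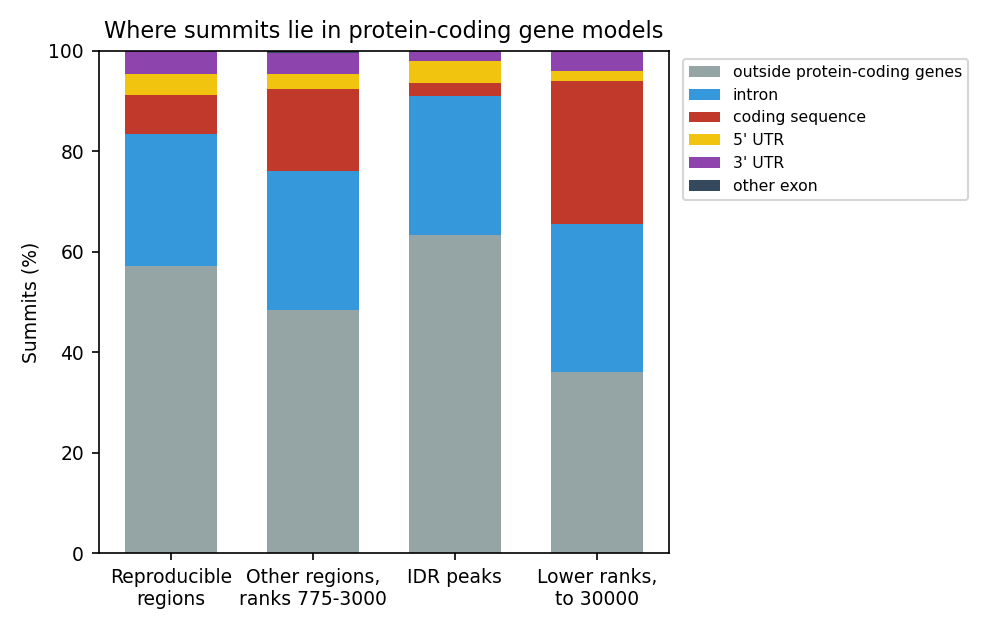
Percentage of summits (vertical) in each class of protein-coding gene model, stacked to 100%, for the reproducible regions, the other regions of the same ranks, the IDR peaks and all lower ranks down to 30000 (horizontal). Coding sequence takes 7.82% in the reproducible regions, 16.2% in the others, 2.58% in the IDR peaks and 28.6% in the lowest ranks.

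Promoter windows covered 1000 bases before and 200 bases after each annotated start of a protein-coding transcript. They held 188 of the 409 summits (46.0%, interval 41.1 to 50.9), against 710 of 1817 (39.1%, interval 36.8 to 41.4) in the other regions (Fisher exact test, odds ratio 1.33, adjusted p = 0.0210) and 30.7% over all pooled regions. Within bins of rank the odds ratio was 1.17 (exact conditional test, adjusted p = 0.283), and without replicate 2 the direction turned, with an odds ratio of 0.969 (adjusted Fisher exact p = 0.796). The IDR peaks had 343 of 774 in promoter windows (44.3%, interval 40.8 to 47.9), which was not distinguishable from the 46.0% (odds ratio 1.07, adjusted Fisher exact p = 0.623). The nearest coding start was a median of 927 bases away, against 982 in the other regions. Within 5000 bases of one lay 385 of the 409 (94.1%), against 1727 of the 1817 others (95.05%) and 93.2% of all pooled regions. This share therefore did not set the reproducible regions apart.

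The reproducible regions were near IDR peaks more often than the others, a difference that the choice of regions can itself produce. A region beside an IDR peak can meet the overlap rule through that peak's replicate regions, as with the 24 that overlap one. The test cannot separate nearness from this rule. A summit lay within 5000 bases of an IDR summit in 112 (27.4%, interval 23.1 to 31.98), against 339 (18.7%, interval 16.9 to 20.5) of the others (Fisher exact test, odds ratio 1.64, adjusted p = 3.03e-04). Within bins of rank the odds ratio was 1.52 (exact conditional test, adjusted p = 0.00995). Without the regions that overlap an IDR peak, a setting added after the data were seen, the shares were 22.9% and 18.6% (odds ratio 1.30, adjusted Fisher exact p = 0.0904). With a replicate summit required inside the region the odds ratio was 1.25 (adjusted Fisher exact p = 0.171). Without replicate 2 the odds ratio was 1.12 (adjusted Fisher exact p = 0.401). The X chromosome, which is 17.7% of the nuclear genome, held 99 of the reproducible regions (24.2%), against 21.4% of the others (odds ratio 1.17, adjusted Fisher exact p = 0.273). The shares on chromosomes I to V were 19.3%, 17.6%, 12.2%, 11.98% and 14.7% of the reproducible regions.

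The reproducible regions reached the promoter windows of 205 protein-coding genes, of which 183 had no IDR peak there. These 183 are 0.916% of the 19973 protein-coding genes, the background for every list below. IDR peaks reached 388 genes, 22 of which also held a reproducible region, so both together reached 571 (2.86%). Of the 409 regions, 167 (40.8%) reached such a gene, and 24 lay in the windows of 2 or more genes. At 108 of the 183 genes (59.02%) the strongest region held WGATAR, near the 59.6% of all reproducible regions in promoter windows. Of the 183 genes, 45 shared their region with another of these genes. A rule without replicate 1 gave 460 newly reached genes and one without replicate 2 gave 537, from more regions. Taking the nearest coding start within 5000 bases in place of the promoter window gave 288 genes, 1.44% of all. Lists of genes are described by their counts, with no test.

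The highest regions lay at genes of varied roles. Of the 25 highest reproducible regions, 16 lay in a promoter window and 16 held WGATAR, beside shares of 46.0% and 56.7% in all 409. The first, at chrV:13373632-13373971, lay in an intron 782 bases upstream of a start of ifbp-1, named for binding intermediate filaments, with a signal of 29.5 in the pooled list, 16.1 in replicate 1 and 16.7 in replicate 2. ifbp-1 also has an IDR peak in its window, and its 3 WGATAR copies include the TGATAA shown above. The region at irld-6, a gene of the family with insulin and EGF receptor L domains, had 29.5 in the pooled list, 16.4 in replicate 1 and 15.3 in replicate 2, and no WGATAR. That at atfs-1, the bZIP factor of the mitochondrial unfolded protein response, lay 69 bases upstream, with 29.1 pooled, 17.003 in replicate 1 and 10.9 in replicate 2. Signal above the rank limits in both replicates was required by the choice of regions and is no result.

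Further genes named by the same rank rule follow. At kars-1, which encodes lysyl-tRNA synthetase and shares the window with kat-1, a thiolase gene, the signal was 29.2 pooled, 16.99 in replicate 1 and 11.6 in replicate 2, with 1 WGATAR. At lec-2, a galectin gene, it was 29.2 pooled, 13.4 and 14.9 in the replicates, with 1 WGATAR. At prk-2, which encodes a Pim-type kinase, the summit was in the 5′ UTR with 3 WGATAR copies, the nearest 5.5 bases away, and the signal was 29.2 pooled, 13.4 and 12.97 in the replicates. At pcyt-2.1, of phosphatidylethanolamine synthesis, the summit was in coding sequence without WGATAR. The hmg-6 region overlaps a snoRNA gene and held no WGATAR. K08B5.1 had 3 copies, F44A6.5, Y53C12B.7 and H40L08.9 had 2 each, K12H4.5 had 1, and F26H11.4 and K09H9.5 had none.

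Of 34 molting and precuticle genes, 5 were newly reached (14.7%, interval 4.95 to 31.1), beside the background of 0.916%. This list, like the others, was chosen with earlier results of these data known, and its share was not tested. IDR peaks had reached 2 others of the list, sym-1 and nekl-2. dpy-18, which encodes a catalytic subunit of the prolyl 4-hydroxylase that modifies collagen, had a region 606 bases upstream with 1 WGATAR. The signal there was 28.2 pooled, 16.2 in replicate 1 and 12.3 in replicate 2. The replicate 2 summit was offset by -182 bases from the pooled summit, outside the region. pdi-2, which encodes the protein disulfide isomerase subunit of the same enzyme, had one 90 bases upstream with 27.9 pooled, 16.3 in replicate 1 and 9.88 in replicate 2, and no WGATAR. Genes of a catalytic and of a disulfide isomerase subunit of this enzyme were therefore on the list of newly reached genes.

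The other 3 molting genes are of the precuticle and of collagen processing. dpy-31, an astacin protease that trims procollagen, had 2 overlapping regions, at 885 and 663 bases upstream, the stronger at chrIII:7201151-7201490 with 27.7 pooled, 15.7 in replicate 1 and 11.9 in replicate 2. Both of its regions share those replicate regions, so they are one site in the replicate lists. The replicate 2 summit was offset by 217 bases from the summit of the stronger one, outside that region. Requiring a summit of each replicate inside the pooled region kept 337 of the 409 regions. noah-1, a zona pellucida domain protein of the apical matrix, had 27.8 pooled, 15.4 in replicate 1 and 12.04 in replicate 2, 948 bases upstream and without WGATAR. Farther from noah-1, 1924 bases upstream and outside the promoter window, lay another reproducible region with 27.5 pooled and 2 WGATAR copies. lpr-3, a lipocalin of the precuticle that falls outside the limit of 4 named genes per list and was added after its values were seen, had 23.6 pooled, 16.1 in replicate 1 and 13.7 in replicate 2, 158 bases upstream with 1 WGATAR. By pooled signal, lpr-3 was thus the lowest of the 5 and the only one under the median of 25.6 of all 409 regions.

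**Figure D5:**
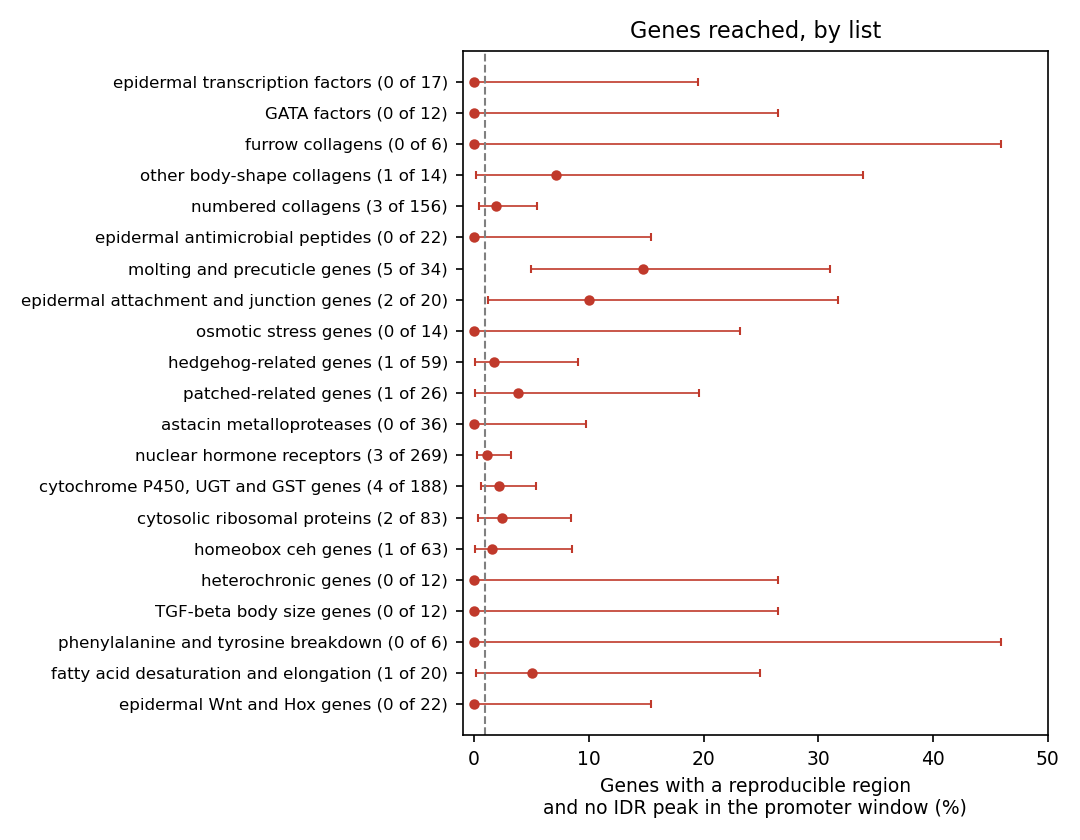
Percentage of genes in each list whose promoter window held a reproducible region and no IDR peak (horizontal), with exact 95% intervals that cover counting error only, and the count of genes beside each list's name. The dashed line is the 0.916% of all protein-coding genes; the molting and precuticle list is at 14.7% with an interval from 4.95 to 31.1.

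Cuticle collagens were reached in small numbers. sqt-1, a collagen gene that shapes the body, was the 1 of 14 in its list, with a region 92 bases upstream at 28.7 pooled, 17.8 in replicate 1 and 9.91 in replicate 2, and 1 WGATAR. Of 156 numbered collagens, 3 were newly reached (1.92%, interval 0.398 to 5.52), an interval that holds the background of 0.916%. They were col-170 (27.1 pooled, 14.4 in replicate 1, 12.1 in replicate 2), col-145 (24.6, 15.2 and 10.2 in the same order) and col-144 (24.005, 14.3 and 9.42). col-144 and col-145 are close neighbours on chromosome V and each had its own region with 2 WGATAR copies. Furrow collagens had 0 of 6, for which 3 counts of the list would be 50% and the exact upper limit is 45.9%.

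Genes that anchor the epidermis had 2 of 20 (10%, interval 1.23 to 31.7). mua-6, an intermediate filament gene of the attachments between epidermis and muscle, had a region 443 bases upstream with 24.7 pooled, 14.7 in replicate 1 and 9.61 in replicate 2, and no WGATAR. let-805, which encodes myotactin, a transmembrane protein of the same attachments, had one 147 bases upstream with 24.4 pooled, 15.9 and 9.50 in the replicates, and 2 WGATAR copies. Both replicate 2 values are close to that list's limit of 9.30. IDR peaks had reached ifb-1 of this list.

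The hedgehog-related, patched-related, nuclear receptor and homeobox ceh families had 1 to 3 newly reached genes each. The hedgehog-related genes had 1 of 59, wrt-1, with a summit in its 5′ UTR at 26.02 pooled, 15.1 in replicate 1 and 10.9 in replicate 2, and 2 WGATAR copies. The patched-related genes had 1 of 26, ptr-14, at 28.8 pooled, 15.9 and 11.9, without WGATAR. Of 269 nuclear hormone receptors 3 were newly reached (1.12%, interval 0.231 to 3.22): nhr-57, known as a hypoxia response gene, nhr-105 and nhr-168. nhr-57 had a region 17 bases upstream with 28.6 pooled, 14.9 in replicate 1 and 13.9 in replicate 2, and 2 WGATAR copies. Of 63 homeobox ceh genes the 1 was ceh-7, at 22.8 pooled with 4 WGATAR copies, in a region shared with prx-5.

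Metabolic genes were reached at up to a few percent of each list. Of 188 cytochrome P450, UGT and GST genes 4 were newly reached (2.13%, interval 0.583 to 5.36). cyp-43A1 had 29.1 pooled, 15.3 in replicate 1 and 12.3 in replicate 2, cyp-34A8 28.04, 17.3 and 10.4, gst-8 25.3, 14.5 and 9.55, and cyp-13A8 24.04, 16.02 and 9.97. All but cyp-43A1 held WGATAR. fat-6, a stearoyl-CoA desaturase gene, was the 1 of 20 in fatty acid desaturation and elongation, with an intronic summit 162 bases downstream of the start, shared with ZK822.9, at 23.6 pooled, 14.7 in replicate 1 and 10.3 in replicate 2. Of 83 cytosolic ribosomal protein genes 2 were newly reached, rps-10 and rpl-24.1, which share with tmem-39 a region in coding sequence on chromosome I without WGATAR, beside 12 that IDR peaks had reached.

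Lists with 0 newly reached genes included transcription factors of the epidermis. Of 17 epidermal transcription factors 0 were, with upper limits of 17.6% from 3 counts and 19.5% from the exact interval, and of 12 GATA factors 0, with limits of 25% and 26.5%. The counts were also 0 of 22 antimicrobial peptide genes, 0 of 14 osmotic stress genes, 0 of 36 genes named as astacins (dpy-31 is counted above), 0 of 12 heterochronic genes and 0 of 12 TGF-beta body size genes. Breakdown of phenylalanine and tyrosine had 0 of 6 and epidermal Wnt and Hox genes 0 of 22. Their limits by 3 counts ran from 8.33% for the astacins to 50% for the breakdown genes, all above the background.

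Marker genes of tissues were reached rarely. Epidermis markers had 1 of 19, ttr-59, a transthyretin-like gene, at 25.4 pooled, 13.8 in replicate 1 and 11.1 in replicate 2, without WGATAR. Markers of intestine (0 of 23), body wall muscle (0 of 26), pharynx (0 of 16), neurons (0 of 34) and germline (0 of 31) had none, for which 3 counts would be 13.04%, 11.5%, 18.8%, 8.82% and 9.68% of each list. All these limits exceed the background of 0.916%, so the lists are too short to show a share below it.

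Genes with more than one reproducible region and no IDR peak numbered 8. At kin-1, the catalytic subunit of protein kinase A, regions 146 bases upstream and 63 bases downstream of a start had pooled signals of 26.5 and 20.6. At nhr-168 they were 25.2 and 22.98, at C07D8.6 28.3 and 23.3, and at K09E2.3 27.2 and 26.6. As at dpy-31, both regions of each of these genes overlapped each other and had the same replicate values, 13.2 and 12.6 at kin-1, so they count as one site in the replicates. F17H10.2 differed, with 27.6 in the 5′ UTR (17.2 in replicate 1, 14.1 in replicate 2) and 23.9 upstream (13.1 and 11.3). H40L08.3 and H40L08.9 share their regions, the stronger at chrX:15076156-15076495 with 29.5 pooled, 15.7 and 13.1 in the replicates.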

How the data were processed

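ChIP-seq of tagged ELT-3 was deposited as region lists for 2 biological replicates, the pooled data and the IDR peaks. The values are a signal per region, made by the authors' peak caller and deposited with no stated scale, so signal ranks and describes regions within a list. For aligner, caller, IDR cut-off and control, details were not given in the sources used here, and no control file was used here. No counts are in the lists, so depth is unknown. In ce11 the regions are 340 bases wide in the pooled list, 344 in replicate 1 and 336 in replicate 2.

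The 409 regions and the gene lists were chosen with earlier results of these data known. Signal and replicate overlap set the choice and were not tested. Sequence came from the RefSeq copy of WBcel235, and genes from Ensembl release 115, with positions 1-based. WGATAR was sought on both strands within 100 bases of the summit. Each summit was compared with its own flank by exact McNemar tests. Groups were compared by two-sided Fisher exact tests, Benjamini-Hochberg adjusted over 7 comparisons, with exact conditional tests within 4 rank bins as an alternative (scipy 1.17.1). Intervals are exact (Clopper-Pearson) at 95% and reflect counting error alone. Regions and genes are not replicates, and nothing tests animals. Named genes are those nearest the 25 highest regions in promoter windows, up to 4 newly reached genes per list, genes with 2 or more regions and no IDR peak, elt-3 and unc-119. Genes outside this rule are said to be picked after the values were known. Listed genes ram-4, ifa-2, mua-1, schn-1 and opt-2 were not matched. Procedures were tested on simulated data. Alternatives changed the overlap rule, rank limits, windows, spellings and build.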

Additional observations from a re-analysis of the deposited data

How the results depend on the processing

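The odds ratio or ratio of WGATAR against the own flanks (1.86 to 3.12 over the overlap, rank and replicate settings) and against IDR peaks (0.375 to 0.585 over them) kept direction and side of the threshold in every alternative run, and the X share never passed. Requiring the top 2000 or top 5000 of each replicate gave 199 or 810 regions, 29 or 129 sequences of 6 bases higher at summits, and 86 or 375 newly reached genes. A single replicate gave 1008 to 1282 regions, 203 to 282 sequences and 460 to 537 genes. A motif window of 50 bases to either side gave 31 sequences, and the nearest start within 5000 bases 288 genes.

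WGATAR against the other regions no longer passed with an overlap of 170 bases (odds ratio 1.29, adjusted Fisher exact p = 0.0581), the top 5000 (1.14), ranks down to 2000 (1.20), GATAAG (1.29) and rank bins (1.09), and ran from 1.03 to 1.29 without a replicate. The promoter share did not pass with the top 2000 (1.27), ranks down to 2000 (1.20), windows from 500 (1.16) or 2000 (1.15) bases upstream and rank bins (1.17). Without a replicate it ran from 0.969 to 1.30, and it turned without replicate 2. Against IDR peaks it turned with the top 5000 (0.985) and without a replicate (0.838 to 0.977). The coding share lost its call over ranks down to 2000 (0.684) and without replicate 2 (0.624 to 0.772 without a replicate). Nearness to IDR peaks lost it with an overlap of 170 bases (1.22), a replicate summit inside the region (1.25), ranks down to 2000 (1.40), without replicate 2 (1.12 to 1.46 without a replicate) and, added after the data were seen, without regions that overlap an IDR peak (1.30). In all, 96 alternative values kept their direction and call or, for counts, stayed close. Another 18 kept their direction but lost the call, 14 counts moved farther and 4 odds ratios turned direction. The causes of these changes were not tested. Also added after the data were seen, leaving out the surroundings of elt-3 and unc-119 kept 408 regions and every call. The ce10 lists gave 396 regions. No paired analysis was possible because both replicates belong to a single group.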

Other observations

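Assigning each region to the nearest coding start within 5000 bases reached genes whose promoter windows held none, among the 288 (1.44% of 19973) with a reproducible region and no IDR peak. Among the listed genes, those added include 1 of 17 epidermal transcription factors (nhr-25), 1 of 12 heterochronic genes (hbl-1), mlt-9 and mlt-10 of the molting list and ajm-1, and outside epidermal lists also nhr-14, nhr-19, nhr-22, gst-1, cyp-36A1 and the body wall muscle marker mlc-3. The genes described next were picked once their values were known, and no test was made. hbl-1, the hunchback-like zinc finger gene of developmental timing, had 3 reproducible regions, 1880, 1302 and 1015 bases upstream, with pooled signals of 24.4, 22.04 and 22.06. The nearer pair shares the replicate regions, at 21.2 in replicate 1 and 13.4 in replicate 2, and the nearest one holds 2 WGATAR copies. nhr-25, a nuclear hormone receptor gene of epidermal differentiation and molting, had a region 2027 bases upstream with 25.98 pooled, 13.8 in replicate 1 and 11.5 in replicate 2, without WGATAR. ajm-1, which encodes an apical junction protein of epithelia, had an intronic region 3052 bases downstream of a start, without WGATAR. Its signal was 29.02 pooled, 12.8 in replicate 1, close to that list's limit of 12.73, and 16.4 in replicate 2. mlt-10 and mlt-9, both named for molting, had regions at 21.3 and 28.4 pooled. The mlt-9 summit lay in coding sequence, 2801 bases downstream of a start, without WGATAR.

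The 22 genes reached by both an IDR peak and a reproducible region included, also picked once their values were known, oatr-1, an ornithine aminotransferase gene (28.1 pooled, 15.3 in replicate 1, 13.1 in replicate 2), nipi-3, a Tribbles-like kinase gene of the epidermal immune response (25.5 pooled), and cpl-1, a cathepsin L gene (25.1 pooled). Non-coding genes overlapped by the regions included 9 with a tRNA gene (2.20%, against 2.31% of the other regions), 10 with a snoRNA gene (2.44%, against 1.49%) and 2 with a miRNA gene, at mir-71 and mir-230.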
